A study of Mus musculus with 6 samples.

Results

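The Hox genes were taken as every gene of the deposited expression table whose symbol is Hoxa, Hoxb, Hoxc or Hoxd followed by a number and whose type is not a pseudogene. The rule names 39 genes in 4 clusters, and 36 of them were among the 33971 genes of the table. Of these, 11 belong to HoxA, 9 to HoxB, 8 to HoxC and 8 to HoxD. Hoxb13, Hoxc12 and Hoxd12 were not analysed here. The study sequenced messenger RNA of articular cartilage from wild-type (WT) mice at 2 ages, with 3 libraries from 2-month-old animals and 3 from 18-month-old animals, and its stated aim was to follow cartilage expression through aging. No treatment, transgene or deletion is named for either group. The study's methods say in general that its samples were independent, but the labels do not tie the libraries to separate animals, so the p-values measure the spread between these libraries, which may be in part technical.

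Hox genes encode homeodomain transcription factors that tell the cells of an embryo where they lie along the body and along a limb. They stand in clusters, and their order on the chromosome follows their order along the body axis, so that low-numbered paralog groups (the genes at the same position in different clusters) act toward the head and high-numbered groups toward the tail and the tip of the limb. Connective tissue cells, chondrocytes among them, keep a Hox pattern of the place where they arose, while blood progenitors in the marrow express another set, mainly from HoxA and HoxB.

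On GRCm38 the HoxA genes spanned chr6:52155590-52260880 on the minus strand. The other clusters lay on plus strands, HoxB at chr11:96271457-96368256, HoxC at chr15:102921103-103036852 and HoxD at chr2:74668310-74765142. Promoters of 21 of the 36 genes were found in the RefSeq table of build GRCm38.p6. The 120 bases before the start site are printed for Hoxd8, Hoxd9, Hoxa2 and Hoxb4. Hoxd8 and Hoxd9 were chosen as among the most abundant Hox genes at 2 months, and Hoxa2 for a low paralog number and a large fall. Hoxb4 was chosen as the only tested member whose 18-month libraries all lay above its 2-month libraries in FPKM. Capitals mark matches on either strand to the CCAAT box (letters CCAAT), the GC box (letters GGGCGG), the TATA box (letters TATAAA) and a site of Hox with its partner Pbx (letters TGATNNAT). The windows are chr2:74704495-74704614 (plus), chr2:74697643-74697762 (plus), chr6:52164832-52164951 (minus) and chr11:96318147-96318266 (plus), in the order printed.
Hoxd8: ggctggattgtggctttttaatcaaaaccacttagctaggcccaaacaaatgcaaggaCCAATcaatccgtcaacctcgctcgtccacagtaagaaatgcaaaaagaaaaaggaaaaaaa
Hoxd9: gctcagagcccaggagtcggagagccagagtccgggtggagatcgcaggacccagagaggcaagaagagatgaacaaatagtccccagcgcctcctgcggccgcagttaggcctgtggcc
Hoxa2: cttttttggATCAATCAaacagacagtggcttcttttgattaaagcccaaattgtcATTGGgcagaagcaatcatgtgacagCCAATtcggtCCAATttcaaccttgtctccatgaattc
Hoxb4: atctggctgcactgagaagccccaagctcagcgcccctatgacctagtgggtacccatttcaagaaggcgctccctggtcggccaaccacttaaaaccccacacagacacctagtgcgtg

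In the 250 bases upstream, CCAAT stood in 12 of the 21 Hox promoters (57.1%), against 34.5% of all 27025 promoters of that length. GGGCGG stood in 9 (42.9%, against 32.9%), TATAAA in 3 (14.3%, against 12.97%) and TGATNNAT in 3 (14.3%, against 7.91%). The motifs may overlap one another. The median number of CpG dinucleotides was 12 in the Hox promoters and 6 in all promoters.

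The clusters also hold microRNA genes, whose mature products silence Hox messengers among others. The 5p arms of the miR-10 and miR-196 families are shown because they lie among the Hox genes and form 2 pairs that each share a seed (bases 2 to 8, in capitals).
mmu-miR-10a-5p: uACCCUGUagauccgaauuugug
mmu-miR-10b-5p: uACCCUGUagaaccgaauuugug
mmu-miR-196a-5p: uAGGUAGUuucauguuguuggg
mmu-miR-196b-5p: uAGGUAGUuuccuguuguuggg
Counted from the 5′ end, miR-10a-5p and miR-10b-5p differ by U12A, and miR-196a-5p and miR-196b-5p by A12C. The miR-10a arm lies at chr11:96317186-96317208 and the miR-10b arm at chr2:74726074-74726096, inside the spans of Hoxd3 and Hoxd4. The miR-196a arm lies at chr11:96265187-96265208 and chr15:102973365-102973386, and the miR-196b arm at chr6:52230129-52230150, within Hoxa9. Mature microRNAs are not measured in poly(A) libraries, and the rows of the microRNA genes of the clusters held between 0 and 6 counts per library, so they give no level here.

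The libraries held 48171507 to 59085179 counts. The study's methods describe male mice. Xist, the RNA of the inactive X chromosome in females, was at 88239 to 102417 counts at the younger age against 11 to 30 at the older, so differences of sex and of age cannot be told apart. All 16 chondrocyte markers fell with age, from Col11a2 (log2 fold change -3.39) to Matn1 (-12.98). Their summed share of counts was 4.58%, 7.08% and 5.66% in 2-month replicates 1, 2 and 3 and 0.0635% to 0.170% at 18 months. Transcripts of these markers were thus a small part of the older libraries. The most abundant marker was Chad, a matrix protein. Neutrophil markers, led by S100a9, took 0.000645%, 0.351% and 0.00547% of counts in 2-month replicates 1, 2 and 3 and 3.93% to 4.24% at 18 months. Markers of blood stem and progenitor cells, led by Lmo2, took 0.00187%, 0.0263% and 0.00353% at 2 months and 0.0881% to 0.0894% at 18 months. Lmo2, Spi1, Tal1 and Myb had 8878 to 11989 counts each in an 18-month library, and the other members at most 4058. Of these 10 markers 9 had a positive log2 fold change, and Mecom had a negative one (-0.76, not called). 2-month replicate 2 thus held more transcripts of marrow markers than the other 2-month libraries. 18-month replicate 1 held the most transcripts of chondrocyte markers of its age.

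At 2 months the Hox genes summed to 135, 111 and 129 FPKM (fragments scaled by transcript length and by library size, a level per length that allows genes to be compared). At 18 months they summed to 27.4, 16.5 and 18.5 FPKM. The FPKM of all genes summed to 269587 to 293108 in a 2-month library and 360503 to 387502 in an 18-month library. Small differences in FPKM between the ages therefore depend on this unit. The means were 125 ± 12.2 (SD, n = 3) and 20.8 ± 5.80 (SD, n = 3), a ratio of 6.01, and the ages did not overlap. In bulk tissue, fewer cells of a type and less RNA per cell cannot be told apart. With 3 libraries against 3, an exact permutation test of a single value cannot give a p below 0.1.

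Genes were tested on the counts with edgeR's quasi-likelihood test over 20397 genes, and calls needed a p below 0.05 after Benjamini-Hochberg adjustment and a log2 fold change, 18-month against 2-month, above 1 or below -1. Of the 36 Hox genes 31 passed the filter on low counts. Of these, 22 were called lower and 0 higher, and those 22 were also the members with an unadjusted p below 0.05. Among all tested genes 21.3% were called lower and 14.9% higher. DESeq2 called 1 Hox gene higher, Hoxb4 (log2 fold change 1.07, adjusted p = 0.035). The FPKM of every 18-month library lay below every 2-month library for 24 Hox genes (32.8% of all tested genes) and above for 1, Hoxb4 (35.6% of all tested genes). The median log2 fold change was -2.43 for the Hox genes and -0.02 for all tested genes.

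**Figure D1:**
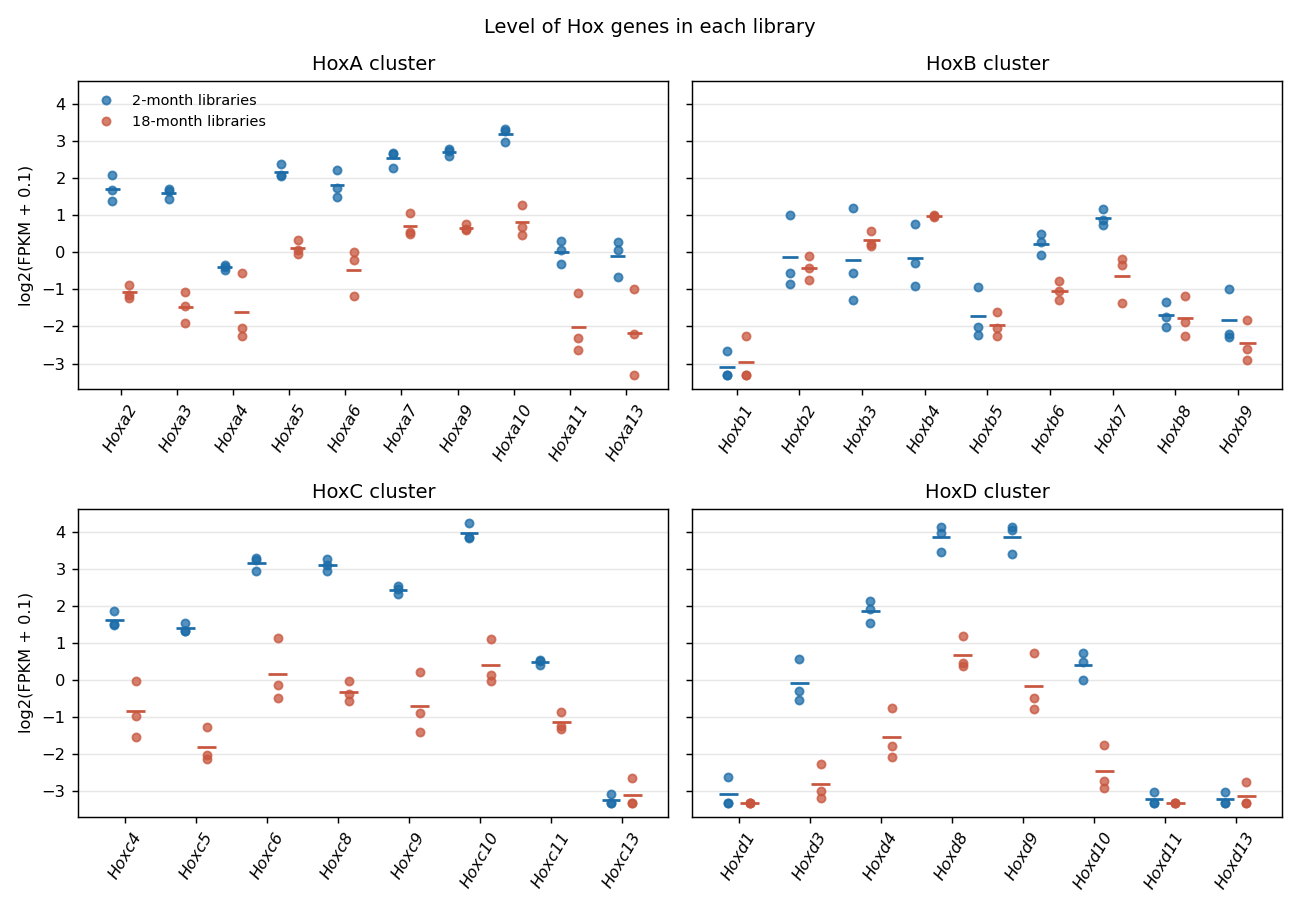
Level of Hox genes on the scale log2(FPKM + 0.1), by cluster and in paralog order, with 1 point per library (blue, 2-month; red, 18-month) and a bar at the mean of the log2 values of 3 libraries. The ages stand apart for nearly every HoxC gene and for Hoxd3 to Hoxd10, while several HoxB genes overlap.

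The clusters differed in level and in the size of the fall. In HoxA 8 of 11 tested genes were called lower, with a median log2 fold change of -2.41. In HoxB the numbers were 2 of 8 and -0.58, in HoxC 7 of 7 and -3.26, and in HoxD 5 of 5 and -3.80. The difference between clusters was not tested. The HoxB median turned to 0.18 without 2-month replicate 2, and to 0.05 when 18-month replicate 1 was left out as well, a setting chosen after the data had been seen.

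**Figure D2:**
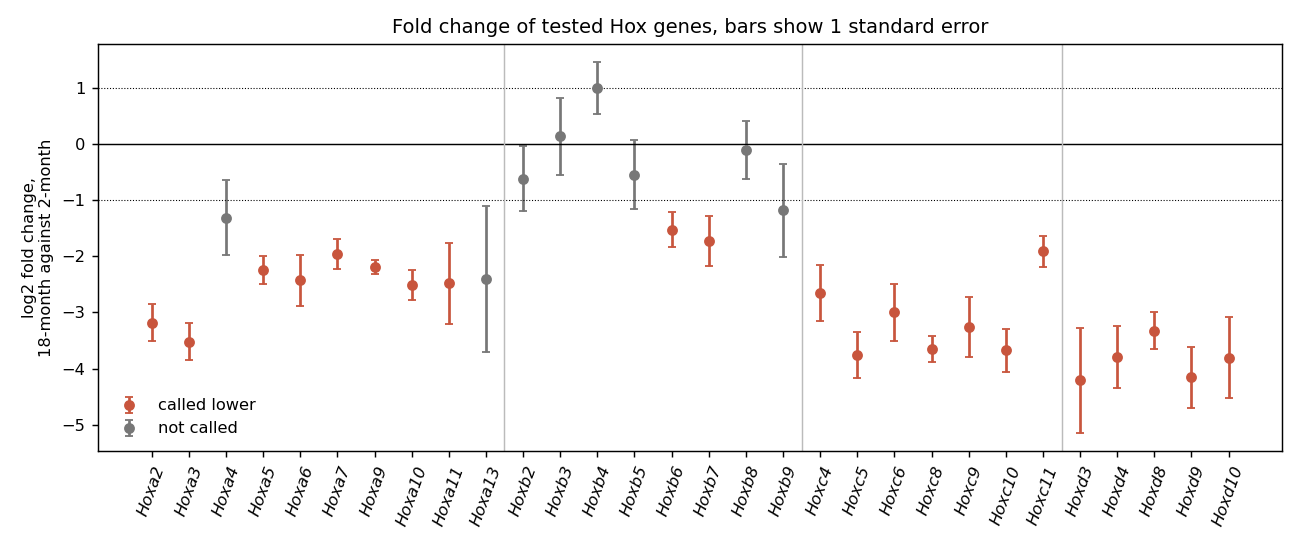
Log2 fold change of tested Hox genes (18-month against 2-month, edgeR), with 1 standard error, in cluster order from HoxA to HoxD. Red points were called lower and grey points were not called, and dotted lines mark log2 fold changes of 1 and -1. All HoxC and HoxD points are red, while 6 of the 8 HoxB points are grey.

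HoxC was the cluster with the highest summed level at 2 months, 45.3 ± 5.19 FPKM (SD, n = 3), against 4.86 ± 2.47 at 18 months. HoxC genes pattern the trunk, and Hoxc10 and Hoxc11 belong to the hindlimb. Hoxc10 was the most abundant Hox gene of the cluster, with 18.8, 14.4 and 14.1 FPKM in 2-month replicates 1, 2 and 3 and 2.04, 1.003 and 0.879 in 18-month replicates 1, 2 and 3. The lowest 2-month library stood well above the highest 18-month library, and its log2 fold change was -3.68 (SE 0.38, edgeR adjusted p = 0.00166). Hoxc6, a gene of the thoracic and forelimb level, had 9.59, 7.52 and 9.33 FPKM at 2 months and 2.09, 0.614 and 0.803 at 18 months, a log2 fold change of -3.001 (SE 0.50, adjusted p = 0.00544). Hoxc8 had 9.53, 7.51 and 8.43 FPKM at 2 months and 0.880, 0.673 and 0.571 at 18 months. It fell by 3.66 on the log2 scale with the smallest error of the cluster (SE 0.23, adjusted p = 0.000751). Hoxc8 is a thoracic gene known from the patterning of vertebrae and ribs.

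Hoxc9 had 5.69, 4.91 and 5.38 FPKM at 2 months and 1.06, 0.436 and 0.276 at 18 months (log2 fold change -3.26, SE 0.53, adjusted p = 0.00495). Hoxc4 had 3.55, 2.71 and 2.74 FPKM at 2 months and 0.871, 0.247 and 0.405 at 18 months (log2 fold change -2.65, SE 0.50, adjusted p = 0.00785). Hoxc5 had 2.42, 2.41 and 2.82 FPKM at 2 months and 0.315, 0.145 and 0.128 at 18 months (log2 fold change -3.76, SE 0.41, adjusted p = 0.00182). These lie at the head-ward end and middle of the cluster, and in each of them the ages did not overlap. The span of Hoxc5 covers neighbouring Hox genes. On the same strand it shares 5.37% of its exonic bases with Hoxc10, where they are 8.70%, so both counts are uncertain. Hoxc11 had 1.34, 1.33 and 1.21 FPKM at 2 months and 0.451, 0.303 and 0.324 at 18 months, the smallest fall of the cluster (log2 fold change -1.91, SE 0.28, adjusted p = 0.00376). Hoxc13, known from hair and nails, was not tested and had 0 to 10 counts per library. In all 7 tested HoxC genes 18-month replicate 1 was the highest library of its age. It also held the most chondrocyte markers of its age and the most fibroblast markers (0.690% of counts, against 0.144% and 0.141%). At 2 months replicate 2 was the lowest library for 5 of these 7 genes. It held the fewest fibroblast markers of its age (1.27%, against 2.98% and 3.25%) but the most chondrocyte markers (7.08%, against 4.58% and 5.66%). The part of these markers in the result was not tested. Without 18-month replicate 1 the HoxC median moved to -3.82.

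HoxD summed to 35.1 ± 7.64 FPKM at 2 months and 2.86 ± 1.43 at 18 months (SD, n = 3), a ratio of 12.3. HoxD genes pattern the limb, the early ones in its proximal part. Hoxd9 had 16.5, 10.5 and 17.4 FPKM at 2 months and 1.56, 0.615 and 0.485 at 18 months, a log2 fold change of -4.15 (SE 0.54, adjusted p = 0.00271). Hoxd8 had 15.5, 10.9 and 17.2 FPKM at 2 months and 2.15, 1.20 and 1.28 at 18 months, a log2 fold change of -3.33 (SE 0.33, adjusted p = 0.00152). Both were lowest in replicate 2 among the 2-month libraries and highest in replicate 1 among the 18-month libraries. The Hoxd8 window printed above holds a CCAAT motif and the Hoxd9 window none of the motifs searched.

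The next gene toward the 5′ end, Hoxd10, was far lower, with 1.56, 1.303 and 0.898 FPKM at 2 months and 0.196, 0.0327 and 0.0498 at 18 months (log2 fold change -3.80, SE 0.72, adjusted p = 0.00804). Hoxd11 and Hoxd13, which pattern the forearm or shank and the digits, were not tested, with 0 to 6 and 0 to 8 counts per library. HoxD transcripts thus came mostly from the middle of the cluster, and Hoxd11 and Hoxd13 were at or near 0 at both ages. On the other side, Hoxd4 had 4.26, 2.81 and 3.66 FPKM at 2 months and 0.489, 0.192 and 0.135 at 18 months (log2 fold change -3.79, SE 0.55, adjusted p = 0.00367). Hoxd3 had 0.588, 0.705 and 1.38 FPKM at 2 months and 0.109, 0.0241 and 0.0105 at 18 months (log2 fold change -4.21, SE 0.93, adjusted p = 0.0132), and the call was lost without 18-month replicate 2 (adjusted p = 0.0536). The annotation gives Hoxd3 62.3% and Hoxd4 52.3% of their exonic bases in common with other genes on the same strand, mainly the readthrough gene Gm28230, so reads cannot be firmly divided among them. Hoxd10 shares 5.73% of its exonic bases with Gm28309 on the same strand. Hoxd1 had 0 to 7 counts. Without 18-month replicate 1 the HoxD median moved to -4.80.

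HoxA summed to 38.2 ± 3.30 FPKM at 2 months and 7.89 ± 1.44 at 18 months (SD, n = 3), a ratio of 4.84. Its most abundant gene was Hoxa10, which acts in the proximal limb and in blood. Hoxa10 had 9.98, 7.82 and 9.62 FPKM at 2 months and 2.32, 1.495 and 1.29 at 18 months (log2 fold change -2.51, SE 0.27, adjusted p = 0.00173). Hoxa9, a limb gene and a regulator of blood progenitors, had 6.56, 5.95 and 6.82 FPKM at 2 months and 1.58, 1.46 and 1.43 at 18 months. Its libraries lay close to each other within each age, and it fell by 2.19 on the log2 scale (SE 0.13, adjusted p = 0.000749). Hoxa7 had 6.36, 4.71 and 6.19 FPKM at 2 months and 1.37, 1.31 and 1.99 at 18 months (log2 fold change -1.96, SE 0.27, adjusted p = 0.00294).

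Hoxa5, which acts in the neck and the lung, had 5.12, 4.06 and 4.14 FPKM at 2 months and 0.870, 0.946 and 1.15 at 18 months (log2 fold change -2.25, SE 0.24, adjusted p = 0.00177). Hoxa6 had 3.20, 4.60 and 2.70 FPKM at 2 months and 0.767, 0.341 and 0.897 at 18 months (log2 fold change -2.43, SE 0.45, adjusted p = 0.00747). Hoxa2 and Hoxa3 had the largest falls of the cluster. Hoxa2, known from the hindbrain and the second pharyngeal arch, had 3.12, 2.50 and 4.15 FPKM at 2 months and 0.327, 0.350 and 0.447 at 18 months (log2 fold change -3.18, SE 0.34, adjusted p = 0.0017). Hoxa3 had 3.16, 2.63 and 3.04 FPKM at 2 months and 0.375, 0.167 and 0.268 at 18 months (log2 fold change -3.52, SE 0.33, adjusted p = 0.00136). Its long span covers other Hox genes, and 25.4% of its exonic bases are also annotated on the other strand. On the same strand, Gm28308 shares 15.0% of the exonic bases of Hoxa2 and 8.01% of those of Hoxa3, so both counts are uncertain. The Hoxa2 window printed above is the only one of the 4 with a TGATNNAT match.

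Members of HoxA at the limits of the test were Hoxa11, Hoxa13 and Hoxa4. Hoxa11, which patterns the middle segment of the limb, had 1.13, 0.702 and 0.955 FPKM at 2 months and 0.365, 0.0621 and 0.1 at 18 months, a log2 fold change of -2.48 (SE 0.72, adjusted p = 0.0325). It lost the call, with adjusted p of 0.0745 to 0.104, when 2-month replicate 1 or 3 or 18-month replicate 2 or 3 was left out. Hoxa13, which acts in the hand and foot, had 1.11, 0.535 and 0.951 FPKM at 2 months and 0.402, 0 and 0.116 at 18 months, and was not called (log2 fold change -2.41, SE 1.296, adjusted p = 0.165). Of 15 alternatives, 2 called Hoxa13 lower. They were limma on log2(FPKM + 0.1) (log2 fold change -2.07, adjusted p = 0.0327) and on log2(TPM + 0.1) (-3.07, adjusted p = 0.0333). Hoxa4 had 0.625, 0.691 and 0.661 FPKM at 2 months and 0.585, 0.111 and 0.145 at 18 months, and was not called (edgeR log2 fold change -1.31, SE 0.67, adjusted p = 0.145). Its 18-month replicate 1 lay close to the 2-month level, and without that library Hoxa4 was called lower (log2 fold change -2.36, adjusted p = 0.0113). Hoxa11 shares 35.0% of its exonic bases with a gene on the other strand, and whether counting used the strand is not given in the sources used here.

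HoxB stood lowest at 2 months, with sums of 4.56, 9.72 and 5.25 FPKM in replicates 1, 2 and 3, against 5.89, 4.59 and 5.06 FPKM at 18 months. The means were 6.51 ± 2.80 and 5.18 ± 0.658 FPKM (SD, n = 3), a ratio of 1.26, and the ages overlapped. In FPKM the direction rested on 2-month replicate 2, without which the 2-month mean was 4.902 FPKM, below the 18-month mean. With FPKM scaled to the total over all genes, the 2-month mean without that library stays above the 18-month mean. The direction thus depends on the unit as well. Of the HoxB genes, Hoxb7 and Hoxb6 were called lower, whereas Hoxb8 and Hoxb9, nearer the trunk end of the cluster, were not. Hoxb7 had 1.74, 1.58 and 2.16 FPKM at 2 months and 0.776, 0.288 and 0.696 at 18 months (log2 fold change -1.73, SE 0.45, adjusted p = 0.0221). It lost the call, with adjusted p of 0.0501 to 0.0733, when 2-month replicate 1 or 3 or 18-month replicate 3 was left out. Hoxb6 had 0.843, 1.31 and 1.11 FPKM at 2 months and 0.490, 0.311 and 0.382 at 18 months (log2 fold change -1.53, SE 0.32, adjusted p = 0.0104).

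Hoxb4, a factor of blood stem cells, had 0.429, 1.58 and 0.718 FPKM at 2 months and 1.87, 1.91 and 1.85 at 18 months. In FPKM all 18-month libraries lay above all 2-month libraries and were close to each other, yet Hoxb4 was not called (log2 fold change 0.99, SE 0.46, adjusted p = 0.117). The separation does not hold when FPKM is scaled to the total over all genes, which was larger at 18 months. Hoxb3 had 0.581, 2.20 and 0.310 FPKM at 2 months and 1.39, 1.08 and 1.02 at 18 months (log2 fold change 0.14, SE 0.68, adjusted p = 0.879). Hoxb2 had 0.449, 1.92 and 0.581 FPKM at 2 months and 0.838, 0.491 and 0.649 at 18 months (log2 fold change -0.62, SE 0.58, adjusted p = 0.405). In all 3 genes the high 2-month library was replicate 2. That library was the highest of its age for 7 of the 8 tested HoxB genes, whereas it was the lowest for 8 of 11 HoxA, 5 of 7 HoxC and 3 of 5 HoxD genes.

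2-month replicate 2 is the library with neutrophil markers at 0.351% of counts and blood stem and progenitor markers at 0.0263%, above both other 2-month libraries. Endothelial markers were also highest of their age in it, at 0.0277% against 0.00119% and 0.00414% in the others. At 18 months endothelial markers lay below this library, at 0.0185% to 0.0196%, whereas neutrophil and progenitor markers lay above it. Hoxb2, Hoxb3 and Hoxb5 were higher in 2-month replicate 2 than in any 18-month library, and Hoxb4 was not. The part of these markers in the HoxB values was not tested. Without 2-month replicate 2, Hoxb4 had a log2 fold change of 1.60 (edgeR adjusted p = 0.00709) and Hoxb3 of 1.27 (adjusted p = 0.0217), so both were called higher, and Hoxb2 had 0.25 (adjusted p = 0.55). Hoxb3 shares 52.9% and Hoxb2 27.3% of exonic bases with genes on the other strand.

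**Figure D3:**
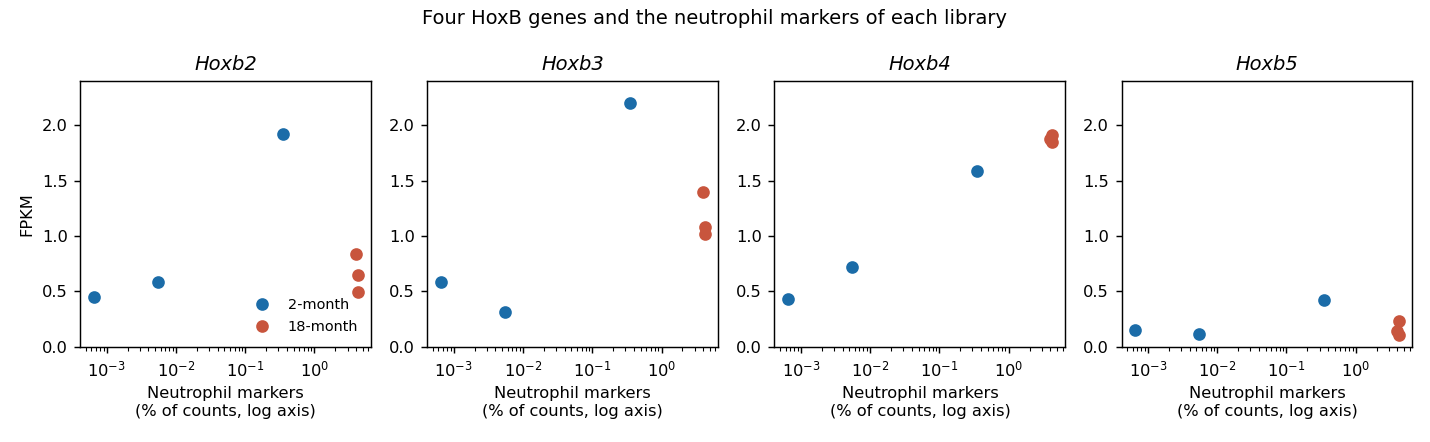
FPKM of Hoxb2, Hoxb3, Hoxb4 and Hoxb5 (vertical axis, from 0) against the share of counts in 12 neutrophil markers (horizontal log axis, percent), with 1 point per library, genes chosen after their values were seen. Of the 2-month points (blue), the one at 0.351% is replicate 2 and is the highest of its age in each panel, and the 18-month points (red) stand at 3.93% to 4.24%.

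Hoxb5, Hoxb8 and Hoxb9 had 0.0344 to 0.426 FPKM over all libraries, and none was called (adjusted p of 0.489, 0.877 and 0.274). Hoxb1 was not tested and had 0 to 16 counts per library. Over the 10 Hox genes listed for blood progenitors, Hoxa5, Hoxa6, Hoxa7, Hoxa9, Hoxa10 and Hoxb2 to Hoxb6, 6 were called lower, 0 higher, and the median log2 fold change was -1.75. The 5′ HoxA and HoxD limb list had 6 of 7 tested genes lower with a median of -2.51. The lists overlap in Hoxa9 and Hoxa10.

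The make-up of the Hox transcripts differed between the ages. HoxC gave 36.2 ± 1.93% of the summed Hox FPKM at 2 months and 22.5 ± 5.03% at 18 months (SD, n = 3). HoxD gave 27.8 ± 3.88% and 13.3 ± 2.89%, HoxA 30.6 ± 0.366% and 38.6 ± 4.71%, and HoxB 5.39 ± 2.91% and 25.6 ± 3.52%. In every cluster the libraries of the ages did not overlap in share. The HoxB shares were 3.39%, 8.73% and 4.06% at 2 months and 21.5%, 27.9% and 27.3% at 18 months, while the HoxB sums overlapped, so its larger share stood beside lower sums of the other 3 clusters.

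**Figure D4:**
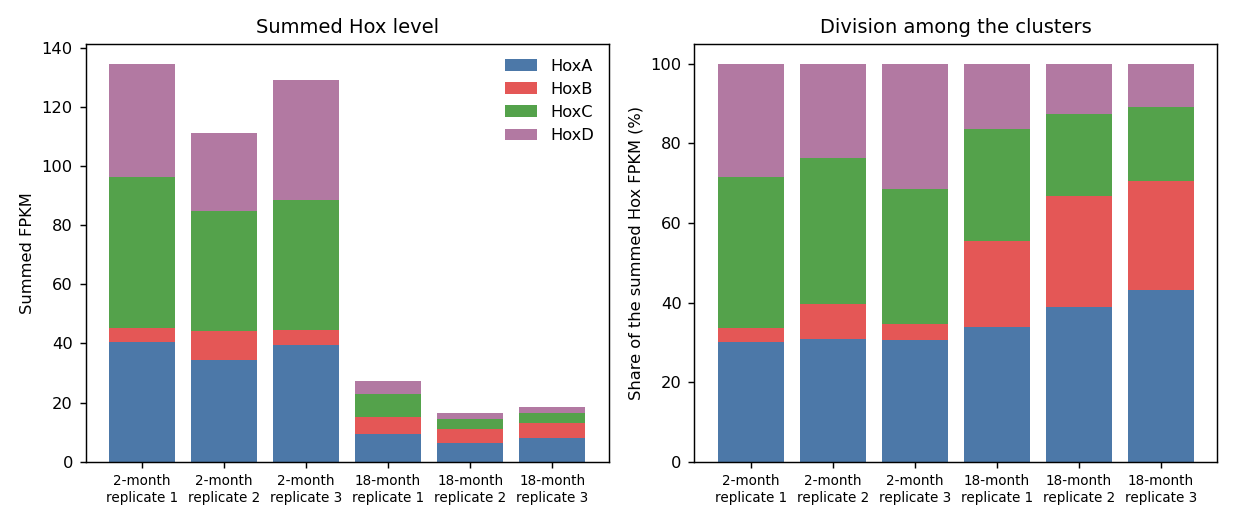
Summed FPKM of the Hox genes by cluster in each library (left) and the same as a percentage of the library's Hox total (right). The 2-month bars reach 111 to 135 FPKM and the 18-month bars 16.5 to 27.4, and HoxB takes 3.39% to 8.73% of the total at 2 months and 21.5% to 27.9% at 18 months.

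By paralog group, 2-month cartilage was highest in groups 8, 9 and 10, with 23.2 ± 3.95, 26.7 ± 4.33 and 26.2 ± 3.68 FPKM (SD, n = 3). The sum dropped to 2.23 ± 0.212 FPKM in group 11 and 0.878 ± 0.286 in group 13. Below the peak, group 6 had 13.4 ± 0.251 FPKM. At 18 months groups 8, 9 and 10 had 2.46 ± 0.795, 3.06 ± 1.05 and 3.10 ± 1.27 FPKM, and group 4, which holds Hoxb4, had 2.94 ± 0.762. The spreads of groups 4, 9 and 10 overlapped at 18 months, so their order cannot be read.

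Groups 9 and 10 together gave 42.2 ± 1.65% of Hox FPKM at 2 months and 29.3 ± 4.499% at 18 months, and groups 4 to 8 gave 47.7 ± 0.434% and 53.8 ± 4.08%. The median log2 fold change was -1.90 in groups 1 to 3 (3 of 6 tested genes lower), -2.25 in groups 4 to 8 (11 of 15) and -2.49 in groups 9 to 13 (8 of 10). Without 18-month replicate 1 the median of groups 9 to 13 moved to -3.72.

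**Figure D5:**
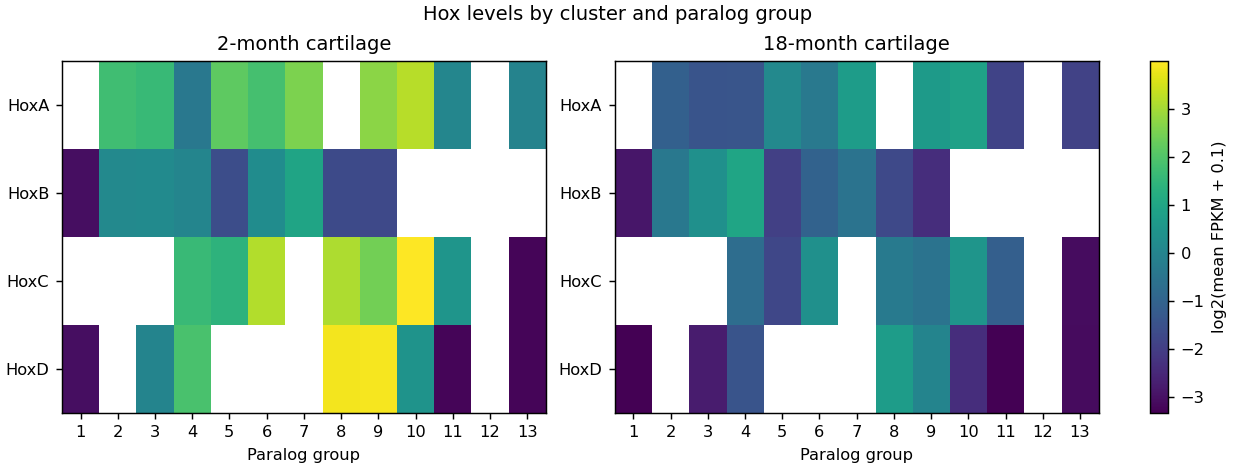
Mean level of Hox genes over 3 libraries, as color on the scale log2(mean FPKM + 0.1), by cluster (rows) and paralog group (columns), at 2 months (left) and 18 months (right). White cells have no gene or are not reported here. The brightest cells at 2 months are HoxC group 10 and HoxD groups 8 and 9, and at 18 months HoxB group 4 is among the brightest.

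The rank order also changed. Hoxc10, Hoxd9, Hoxd8, Hoxa10 and Hoxc6 were the 5 most abundant Hox genes in every 2-month library. Hoxc10 led in replicates 1 and 2, and Hoxd9 led in replicate 3. At 18 months Hoxa10 led in replicate 1, Hoxb4 in replicate 2 and Hoxa7 in replicate 3, at 2.32, 1.91 and 1.99 FPKM. Between 20 and 23 Hox genes reached 1 FPKM in a 2-month library and 7 to 10 in an 18-month library, and 7 to 10 against 0 reached 5 FPKM. Among genes with a mean of at least 0.5 FPKM, the median coefficient of variation was 16.8% at 2 months (27 genes) and 33.2% at 18 months (16 genes). The most even gene at 18 months was Hoxb4, at 1.74%, and the most uneven at 2 months was Hoxb3, at 99.2%.

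Noncoding RNAs are transcribed between the Hox genes. Of 17 listed, 16 were in the table and 8 were tested, of which 6 were called lower and 0 higher (7 at an unadjusted p below 0.05), with a median log2 fold change of -2.54. Hotairm1, of the HoxA cluster, was the most abundant, with 3.39, 2.55 and 1.93 FPKM at 2 months and 1.52, 1.21 and 0.867 at 18 months (log2 fold change -1.19, SE 0.35, adjusted p = 0.0339). Hoxd3os1, opposite Hoxd3, had the largest fall, from 2.30, 1.33 and 1.56 FPKM to 0.168, 0.141 and 0 (log2 fold change -4.11, SE 1.20, adjusted p = 0.033). Hotair, of the HoxC cluster, fell by 3.62 on the log2 scale (SE 0.52, adjusted p = 0.00342).

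Genes that flank the clusters were also listed. Of 11 listed, 10 were in the table and 8 tested, of which 2 were called higher and 2 lower. Among all tested genes 14.9% were called higher and 21.3% lower, and with so few flanking genes no difference from these shares can be read. The median log2 fold change was 0.16. Calcoco1, beside HoxC and the most abundant at 2 months, had means of 15.4 and 5.62 FPKM (log2 fold change -1.54, SE 0.16, adjusted p = 0.00158). Skap1, beside HoxB and known from lymphocytes, had 0 to 13 counts at 2 months and 160 to 308 at 18 months and was the largest rise. Ttll6, beside HoxB, was called lower with 15 to 23 counts at 2 months and 0 in every 18-month library. Skap2, beside HoxA and expressed in myeloid cells, was also called higher (log2 fold change 1.85, SE 0.32, adjusted p = 0.00601).

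Hox proteins bind DNA with TALE homeodomain partners of the Pbx, Meis and Pknox families. Of 9 such genes 1 was called higher and 2 lower. Pbx2 was the most abundant, with means of 12.9 and 23.8 FPKM, and was not called (log2 fold change 0.81, SE 0.09, adjusted p = 0.0018), since its change lay within the fold limit. Meis2, a gene of the proximal limb, fell by 3.25 on the log2 scale (SE 0.35, adjusted p = 0.00178), and Pbx4 rose (log2 fold change 2.17, SE 0.54, adjusted p = 0.0194) from a mean of 0.163 to 0.804 FPKM.

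Polycomb complexes keep Hox genes silent and the MLL complex keeps them active. Of 28 Polycomb genes 3 were called higher and 6 lower, with a median log2 fold change of -0.17. Rbbp7, a histone-binding subunit, was the most abundant (means of 36.0 and 47.5 FPKM, not called). Ezh2, the methyltransferase that marks silent genes, had the largest rise (log2 fold change 2.01, SE 0.55, adjusted p = 0.0267). It had 1.69, 7.09 and 1.93 FPKM in 2-month replicates 1, 2 and 3 and 15.0, 14.9 and 14.5 at 18 months. Pcgf2 had the largest fall (-1.90, SE 0.18, adjusted p = 0.00133). Whether either change bears on the Hox levels was not tested. Of 13 genes of the MLL complex and the H3K27 demethylases 2 were called higher and 1 lower, with a median of 0.02. Wdr5 rose (log2 fold change 1.31, SE 0.11, adjusted p = 0.0012), Kmt2a, which encodes MLL1, fell (-1.06, SE 0.15, adjusted p = 0.00363), and Dpy30, the most abundant by the mean over both ages, rose (1.002, SE 0.12, adjusted p = 0.00208). The shares of the TALE, Polycomb and MLL lists called higher or lower were close to or below those of all tested genes.

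Markers of other cell types moved between the ages as well. Of 8 synovial and tendon fibroblast markers, led by Prg4, 4 were called lower and 1 higher (Thy1), with a largest fall in Mkx, and their share of counts was 2.98%, 1.27% and 3.25% at 2 months. Of 10 osteoblast and osteocyte markers, led by Ibsp at 2 months and Bglap2 at 18 months, 4 were called lower, Alpl the most, and the share was 0.503% to 0.718% at 2 months and 0.135% to 0.152% at 18 months. Skeletal muscle markers, led by Tnni2 at 2 months and Mylpf at 18 months, had 5 of 7 tested genes lower. Among these Myh1 was at the floor of 3 counts in every 18-month library, and of the others Tnni2 had the largest fall. Of 8 erythroid markers, led by Hbb-bs and with the largest called rise in that gene, 3 were called higher, at 0.0247%, 0.657% and 0.0697% of counts in the 2-month libraries and 2.68% to 3.55% at 18 months. Of 10 blood stem and progenitor markers 3 were called higher, Gata2 the most. Those not called included Cd34 (log2 fold change 0.76), Hlf (0.85) and Mecom (-0.76). None of the 12 neutrophil and 6 endothelial markers was called, and of the 2 tested adipocyte markers Fabp4 was called higher. The neutrophil markers had 2 unadjusted p below 0.05 and every 18-month library above every 2-month library in all 12, and the endothelial markers, led by Cdh5 at 2 months and Pecam1 at 18 months, had 0 of either. The part of these cell types in the fall of the Hox genes was not tested.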

How the data were processed

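RNA sequencing of articular cartilage covered 3 libraries at 2 months and 3 at 18 months. Raw gene counts, in whole numbers, were deposited by the authors, together with FPKM values that they had scaled by transcript length and library size. The labels describe poly(A) selection and dUTP strand marking, and the submitters' processing notes name cutadapt 1.9, HISAT2 2.0.4, UMI-tools, StringTie 1.3.4d, DESeq2 and edgeR. Genome build, annotation and strand setting are not given in the sources used here. Of the 33971 genes, 33865 were found in GENCODE M21 by identifier. The start and end were the same there for 30925 genes, and for 34 of the 36 Hox genes, so positions were taken as GRCm38. No library column was left out (0).

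Counts were tested over the whole table in R 4.3.3 with edgeR 4.0.16 (TMM, filterByExpr, quasi-likelihood test, no replicate block), with Benjamini-Hochberg adjustment. Standard errors were obtained from the fold change and the F statistic. A group with at most 3 counts in every library was taken as at the floor. The alternatives used limma 3.58.1 and DESeq2 1.42.0, and scripts were tested on simulated data. Libraries of one age differed by 6.32 to 48.8 times the counting noise, so each was kept. The spread between libraries set the precision of each value.

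The Hox genes and all lists were chosen with earlier results of these data known. Members with a mean of at least 0.5 FPKM at either age are given with every library. From other lists the most abundant member (by the mean over both ages, or at each age where they differ) and the largest called rise and fall are named. One Hox gene is counted in the totals but not reported here. Figures were drawn with matplotlib 3.10.9.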

Additional observations from a re-analysis of the deposited data

How the results depend on the processing

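The number of Hox genes called lower, 22, was 17 to 24 over 9 alternatives that kept all libraries and 20 to 23 with 1 library left out. The number called higher was 1 with DESeq2, 0 to 2 with 1 library left out, and 1 with 2-month replicate 2 and 18-month replicate 1 both left out, a setting chosen after the data had been seen. The blood-progenitor Hox genes called higher were 1, 0 to 2 and 1 in the same settings. The causes were not tested.

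Medians of log2 fold changes were nearer to 0 with limma on log2(FPKM + 1), where the pseudocount itself shrinks the change of low genes. They were -1.40 for all Hox genes, -1.42 for HoxA, -0.11 for HoxB, -2.02 for HoxC and -1.85 for HoxD, and -0.51, -1.42 and -1.31 for paralog groups 1 to 3, 4 to 8 and 9 to 13. Rescaling to TPM moved the median of all genes to -0.33, HoxA to -2.82 and groups 9 to 13 to -2.97. With 1 library left out, HoxB ran from -0.86 to 0.18, HoxC from -3.82 to -2.91, HoxD from -4.80 to -3.52 and groups 9 to 13 from -3.72 to -2.28. With both named libraries left out these were 0.0463, -3.93, -4.88 and -3.88. Counts in place of FPKM put HoxA at 36.8% and HoxC at 31.8% of the 2-month Hox total.

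Among single genes, log2 fold changes turned sign in Hoxb2, Hoxb3, Hoxb5, Hoxb8 and Hoxb9, none of them called with all libraries. Over 15 alternatives, which kept all libraries or left 1 out, Hoxb3 ran from -0.28 to 1.27 and Hoxb2 from -0.94 to 0.25. Over the same alternatives Hoxb5 ran from -0.92 to 0.20 and Hoxb8 from -0.62 to 0.19. The upper ends of Hoxb2, Hoxb3 and Hoxb5 were those without 2-month replicate 2, and without it Hoxb3 passed the test. With both named libraries left out, Hoxb2 was at 0.0558, Hoxb5 at 0.29 and Hoxb9 at 0.0367. In 14 further cases a called Hox gene lost its call and in 10 an uncalled one gained it.

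Same-numbered libraries of the 2 ages deviated with correlations of -0.0105 to 0.0354, so their deviations gave no sign of pairing. With 3 libraries per age this check cannot exclude a pairing. With a replicate block all calls went from 7401 to 6032, Hoxb6 lost its call (adjusted p = 0.054), the noncoding genes called lower went from 6 to 3, the flanking genes called lower from 2 to 1, and the median of paralog groups 9 to 13 was -3.10.

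Small lists moved more. Polycomb genes called higher, 3, were 1 with TPM, 1 to 5 with 1 library left out and 6 with both left out, and those called lower, 6, were 2 with log2(FPKM + 1). MLL and demethylase genes called higher, 2, were 0 with TPM, 1 without the 100 most abundant genes in the scaling, 1 to 2 with 1 library left out and 1 with both left out. Those called lower, 1, were 0 with DESeq2, total counts and limma at either pseudocount, 3 with TPM, 2 without the 100 most abundant genes, 1 to 2 with 1 library left out and 2 with both left out. TALE genes called higher, 1, were 0 with log2(FPKM + 1) and 0 to 1 with 1 library left out, and those called lower, 2, were 4 with TPM and 1 to 2. Noncoding genes called lower were 2 with log2(FPKM + 1). Flanking genes called higher, 2, were 1 with log2(FPKM + 1) and 1 to 3 with 1 library left out, and those called lower were 1 in all 3 limma fits.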
